A study of Homo sapiens with 6 samples.

Results

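The genes of glucose uptake, glycolysis and pyruvate entry are 34 of the 16617 genes in the authors' deposited table, chosen by symbol from a fixed list, and all 34 were found. They were compared between T3M4 cells with a guide RNA against METTL13 (sgMETTL13, 3 libraries, called a METTL13 knockdown in the labels) and T3M4 cells with a control guide RNA (sgControl, 3 libraries, called WT in the labels). T3M4 is an established human pancreatic ductal adenocarcinoma line, and both groups were grown in DMEM with fetal bovine serum. METTL13 methylates the translation elongation factor eEF1A, and the RNA profile was made beside protein measurements of the same cells, which are not used here. The labels do not say whether the guide acts by cutting or by repression, whether the cells are 1 clone or a pool, or whether the libraries are separate cultures. Values of single libraries are not analysed here: the levels below are the authors' group averages, and the p-values, from the authors' own test, measure only the spread between these libraries.

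Glycolysis splits glucose into pyruvate in the cytosol, with ATP made at the phosphoglycerate kinase and pyruvate kinase steps. Pyruvate is then either reduced to lactate and exported or carried into mitochondria, where the pyruvate dehydrogenase complex turns it into acetyl-CoA. Pancreatic ductal adenocarcinoma is known for high glucose uptake and lactate output. Hypoxia induces many genes of the pathway, mainly through the hypoxia-inducible factor HIF-1, which binds ACGTG-containing elements near many of them.

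Messenger RNA of the pathway differed little between the groups. One gene, PKM, passed the test (adjusted p under 0.05), and it rose 1.12-fold in sgMETTL13 cells by the authors' deposited table. That is 1 of 34 genes (2.94%), against 3.8% of all genes in the table, 2.73% higher and 1.08% lower, so the share was near that of all genes. No gene of the 34 was called lower. The unadjusted p was under 0.05 for 6 genes on the higher side (PKM, ALDOA, TPI1, ENO1, PGK1 and PFKFB4) and for 3 on the lower side (PFKM, PFKFB2 and LDHB) in the authors' deposited table. These 9 genes are 26.5% of the 34, against 12.4% of all genes. Abundant genes are those with the median of 205 mean reads or more, to which 30 of the 34 belong. All 9 are among these 30, so 9 of 30 stands against 21% of the abundant genes. By the adjusted p, 3.33% of these 30 were called, against 7.04% of the abundant genes. The median log2 fold change of the 34 genes was 0.04 (quartiles -0.07 and 0.11), against 0.00 for all genes and 0.01 for abundant genes. How many were called depended on the rule. At a threshold of 0.1 there were 4 (PKM, ALDOA, TPI1 and PFKFB4), against 5.35% of all genes. With the adjustment made over abundant genes alone there were 3 (PKM, ALDOA and TPI1), against 9.34%. A Bonferroni adjustment left 0, against 1.08%, and so did the removal of a smooth trend of fold change in transcript GC content and length, called the GC-length correction here, against 2.73%. PKM was the 1 called gene at a threshold of 0.01 (2.46% of all genes), with the adjustment recomputed (3.82%) and with centred fold changes (3.78%). The deposited values also limit the size of a difference between these libraries, on the authors' own scale. An interval was computed from the deposited fold change and p of each gene, taking the test as normal, and for 27 of the 34 genes the whole 95% interval lay within 1.3-fold of no change. For 31 of them it lay within 1.5-fold. Over all 16617 genes the counts were 6919 within 1.3-fold and 9712 within 1.5-fold. Among the 8309 abundant genes they were 6635 and 8087, and among the 30 abundant genes of the pathway 27 and 30. Narrow intervals were thus common among abundant genes and not particular to this pathway.

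**Figure D1:**
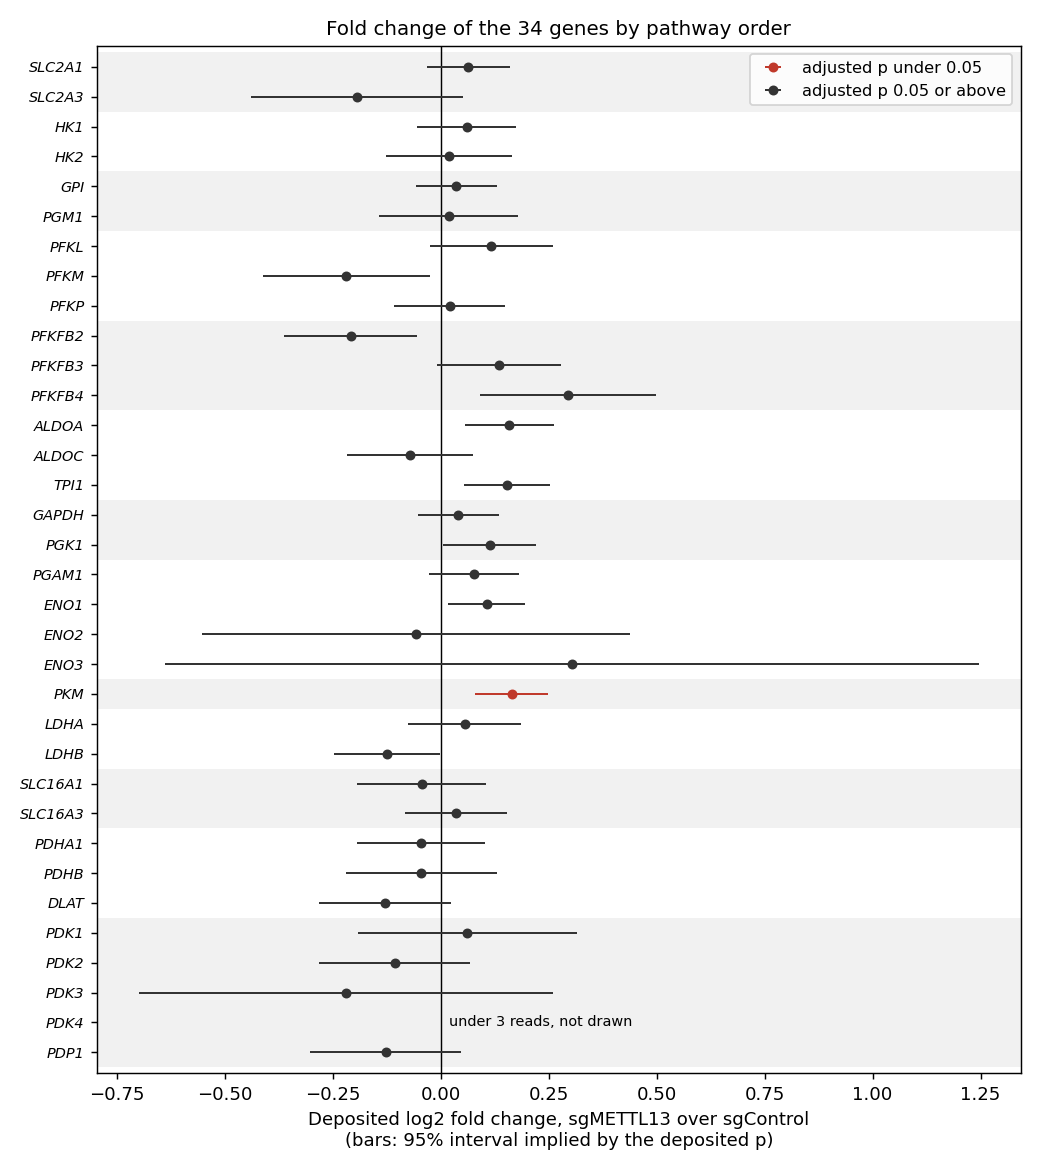
Deposited log2 fold change of each gene (sgMETTL13 over sgControl) with the 95% interval implied by the deposited p, in pathway order from glucose transporters at the top to pyruvate dehydrogenase regulators at the bottom; shading separates steps. PKM at 0.16 passed the test, and the widest intervals drawn belong to the low-abundance genes ENO3, ENO2 and PDK3; PDK4, with under 3 reads, is not drawn.

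The guide's target was reduced as the labels say. METTL13 averaged 5.63 TPM in sgMETTL13 cells and 39.9 TPM in sgControl cells in the authors' deposited table, which is 14.1% of the control level (log2 fold change -2.78, adjusted p = 2.5e-127). Ductal epithelial markers were present, with KRT19 at 2078 TPM in sgMETTL13 cells and 2107 TPM in sgControl cells in the authors' deposited table. All 7 markers of that list were in the table, at 34.2 to 2078 TPM in sgMETTL13 cells and 43.6 to 2107 TPM in sgControl cells. SOX9, a ductal transcription factor, was the 1 called (log2 fold change -0.28, adjusted p = 0.0242 in the authors' deposited table). Summed levels were 1.963 TPM in sgMETTL13 cells and 0.837 TPM in sgControl cells for acinar markers (3 of 4 in the table), and 0.0833 TPM in sgMETTL13 cells and 0 TPM in sgControl cells for islet markers (1 of 4). For endothelial markers (3 of 3) they were 1.44 TPM in sgMETTL13 cells and 2.04 TPM in sgControl cells. The leukocyte list (2 of 4) summed to 44.6 TPM in sgMETTL13 cells and 41.5 TPM in sgControl cells, nearly all of it CD68, and the fibroblast list (4 of 5) to 14.4 TPM in sgMETTL13 cells and 14.3 TPM in sgControl cells, nearly all of it COL1A1. None of these other markers was called. Average reads per library summed to 15247500 in sgMETTL13 cells and 15240866 in sgControl cells by the authors' deposited table.

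Together the 34 genes took 32106 TPM in sgMETTL13 cells and 32063 TPM in sgControl cells by the authors' deposited table, or 3.21% of the summed TPM in each. GAPDH alone supplied 16802 TPM in sgMETTL13 cells and 17186 TPM in sgControl cells. Levels ran from GAPDH, at rank 2 of all genes by mean TPM, through PKM at rank 34, ALDOA at 38, ENO1 at 61, TPI1 at 83 and LDHA among the first 1% of genes, to PDK4 with 0.0333 TPM in sgMETTL13 cells and 0.0233 TPM in sgControl cells in the authors' deposited table. One matter of scale touches every small difference here. For abundant genes the authors' log2 fold change lies 0.05 above the log2 ratio of their average reads and 0.07 above that of their average TPM, so 9 of the 34 genes, none called, have a log2 fold change above 0 beside a TPM that is lower in sgMETTL13 cells.

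**Figure D2:**
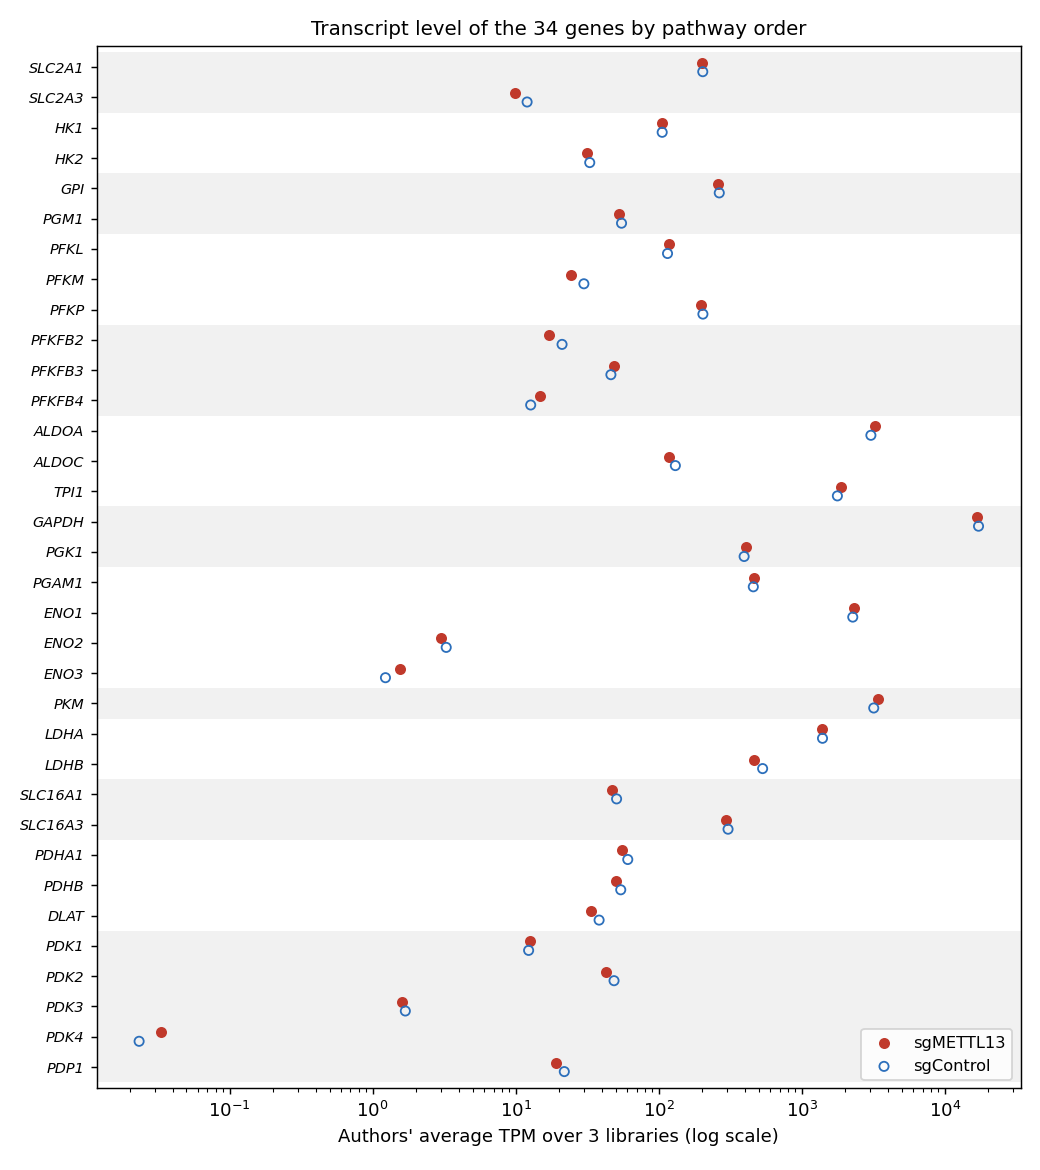
Authors' average TPM (log axis) of each gene in sgMETTL13 (filled, upper) and sgControl (open, lower), in pathway order with steps shaded. The pairs lie close together for nearly all genes across a range from PDK4 at 0.0333 and 0.0233 TPM to GAPDH at 16802 and 17186 TPM (sgMETTL13 and sgControl in each pair).

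Promoter sequence is shown for 4 genes because HIF-1 is the best known inducer of this pathway and its element can be looked for in them. The sequences are the 250 bases before a RefSeq transcript start (GRCh38.p14), 5′ to 3′ on the gene's strand, with ACGTG on either strand in capitals. Where both strands overlap they form CACGTG, the E-box that MYC and the carbohydrate-responsive MLX partners bind. PKM, the gene that was called, and ALDOA, which came nearest to a call, are followed by the textbook HIF targets LDHA and PGK1.
PKM, chr15:72231191-72231440, minus strand: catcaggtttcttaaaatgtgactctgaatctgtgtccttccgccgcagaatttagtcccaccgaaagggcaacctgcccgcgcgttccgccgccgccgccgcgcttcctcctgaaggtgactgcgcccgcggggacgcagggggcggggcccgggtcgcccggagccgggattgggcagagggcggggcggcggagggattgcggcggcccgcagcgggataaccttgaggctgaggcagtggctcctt
ALDOA, chr16:30065510-30065759, plus strand: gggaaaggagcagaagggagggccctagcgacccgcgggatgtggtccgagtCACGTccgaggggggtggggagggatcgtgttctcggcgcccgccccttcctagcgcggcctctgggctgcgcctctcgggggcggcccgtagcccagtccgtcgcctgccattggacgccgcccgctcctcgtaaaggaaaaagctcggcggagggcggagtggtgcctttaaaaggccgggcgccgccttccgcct
LDHA, chr11:18394313-18394562, plus strand: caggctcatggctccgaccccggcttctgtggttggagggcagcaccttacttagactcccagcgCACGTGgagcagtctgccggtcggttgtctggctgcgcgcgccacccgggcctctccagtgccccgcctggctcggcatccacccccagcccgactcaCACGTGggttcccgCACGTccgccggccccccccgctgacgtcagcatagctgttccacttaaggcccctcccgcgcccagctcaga
PGK1, chrX:78103998-78104247, plus strand: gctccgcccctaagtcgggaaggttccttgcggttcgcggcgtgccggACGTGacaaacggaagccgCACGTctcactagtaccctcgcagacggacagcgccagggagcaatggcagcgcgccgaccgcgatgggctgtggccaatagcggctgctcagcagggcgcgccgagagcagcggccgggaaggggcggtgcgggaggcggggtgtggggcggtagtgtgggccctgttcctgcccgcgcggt

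The PKM window held 0 such sites, this ALDOA window 1, this LDHA window 3 and the PGK1 window 2. LDHA has another window, starting at 18396101, which held 0. ALDOA has others, starting at 30064029 and 30064247, which held 1 each. Of the 34 genes 30 had an entry among the RefSeq promoters, with 61 windows, and 22 windows (36.1%) held ACGTG on either strand, against 18.5% of all 35116 windows. CACGTG was found in 8 of the 61 windows (13.1%), against 6.34% of all. Counted by gene, 19 of the 30 (63.3%) had ACGTG in at least 1 window, against 21.7% of all 27305 genes with an entry. Those 27305 include genes outside the 16617 of the deposited table, so the 2 sets are not alike in expression. The 30 genes had 2.03 windows each on average, against 1.29 over all genes. The 19 had a median log2 fold change of 0.02 and the other 11 a median of 0.11 in the authors' deposited table. ENO2 and PDK3 are among the 19, and ENO3 and PDK4 among the 11, all under the median of 205 mean reads. The difference between the medians was not tested. The match is of letters only and gives no information on binding.

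Glucose transporters and hexokinases did not pass the test. SLC2A1, which encodes GLUT1 and carried 95.3% of the TPM of these transporters (SLC2A1 and SLC2A3) in sgMETTL13 cells and 94.4% in sgControl cells, stood at 202 TPM in sgMETTL13 cells and 203 TPM in sgControl cells in the authors' deposited table. Its log2 fold change was 0.06 (implied 95% interval -0.03 to 0.16, adjusted p = 0.748). SLC2A3, the high-affinity GLUT3, had 9.96 TPM in sgMETTL13 cells and 12.02 TPM in sgControl cells, with a log2 fold change of -0.19 (-0.44 to 0.05, adjusted p = 0.616) in the authors' deposited table. SLC2A3 is 1 of 6 of the 34 genes whose average reads are not multiples of 1 read over 3 libraries, as when some reads are shared out among several genes. The others are GPI, PFKM, PFKFB4, PGAM1 and PDK3, and 21.4% of all genes in the table have such averages. Hexokinases trap glucose in the cell as glucose 6-phosphate. HK1, the broadly expressed form, had 105 TPM in sgMETTL13 cells and 106 TPM in sgControl cells, and HK2, the form often induced in tumours, 31.7 TPM in sgMETTL13 cells and 32.9 TPM in sgControl cells, in the authors' deposited table. The log2 fold change of HK1 was 0.06 (-0.06 to 0.17, adjusted p = 0.867) and that of HK2 was 0.02, with an interval of -0.13 to 0.16. The share of HK2 in the TPM of HK1 and HK2 was 23.3% in sgMETTL13 cells and 23.8% in sgControl cells.

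No gene of the upper pathway passed the test either. GPI, which interconverts glucose and fructose 6-phosphates, had 258 TPM in sgMETTL13 cells and 265 TPM in sgControl cells (log2 fold change 0.04, -0.06 to 0.13, adjusted p = 0.943) in the authors' deposited table. PGM1, which links glycogen to glycolysis, had 52.9 TPM in sgMETTL13 cells and 54.95 TPM in sgControl cells (log2 fold change 0.02). Phosphofructokinase, the committing step, is made of liver, muscle and platelet subunits. PFKP led with 196 TPM in sgMETTL13 cells and 204 TPM in sgControl cells, followed by PFKL with 119 TPM in sgMETTL13 cells and 115 TPM in sgControl cells, in the authors' deposited table. PFKM was the least abundant of the subunits, with 24.4 TPM in sgMETTL13 cells and 30.0 TPM in sgControl cells. PFKM had a log2 fold change of -0.22 (-0.41 to -0.02, adjusted p = 0.284) in the authors' deposited table, while PFKL had 0.12 and PFKP 0.02 (-0.11 to 0.15, adjusted p = 0.968). Its share of phosphofructokinase TPM was 7.20% in sgMETTL13 cells and 8.60% in sgControl cells.

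The bifunctional PFKFB enzymes set fructose 2,6-bisphosphate, the strongest activator of phosphofructokinase. PFKFB4 had the largest fold change of the 30 more abundant genes: 14.7 TPM in sgMETTL13 cells and 12.7 TPM in sgControl cells, with a log2 fold change of 0.29 (0.09 to 0.50, adjusted p = 0.0927) in the authors' deposited table. PFKFB2 lay on the other side, with 17.2 TPM in sgMETTL13 cells, 21.1 TPM in sgControl cells and a log2 fold change of -0.21 (-0.36 to -0.05, adjusted p = 0.131) in the authors' deposited table. PFKFB3, the form with the highest kinase over phosphatase activity, was the most abundant, with 48.9 TPM in sgMETTL13 cells and 46.3 TPM in sgControl cells (log2 fold change 0.13, -0.0079 to 0.28, adjusted p = 0.459 in the authors' deposited table). Neither PFKFB2 nor PFKFB4 passed the test over all genes. Within PFKFB2, PFKFB3 and PFKFB4 together, PFKFB2 made up 21.2% of the TPM in sgMETTL13 cells and 26.3% in sgControl cells, and PFKFB4 18.2% in sgMETTL13 cells and 15.9% in sgControl cells. Their sum was 80.8 TPM in sgMETTL13 cells and 80.1 TPM in sgControl cells.

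**Figure D3:**
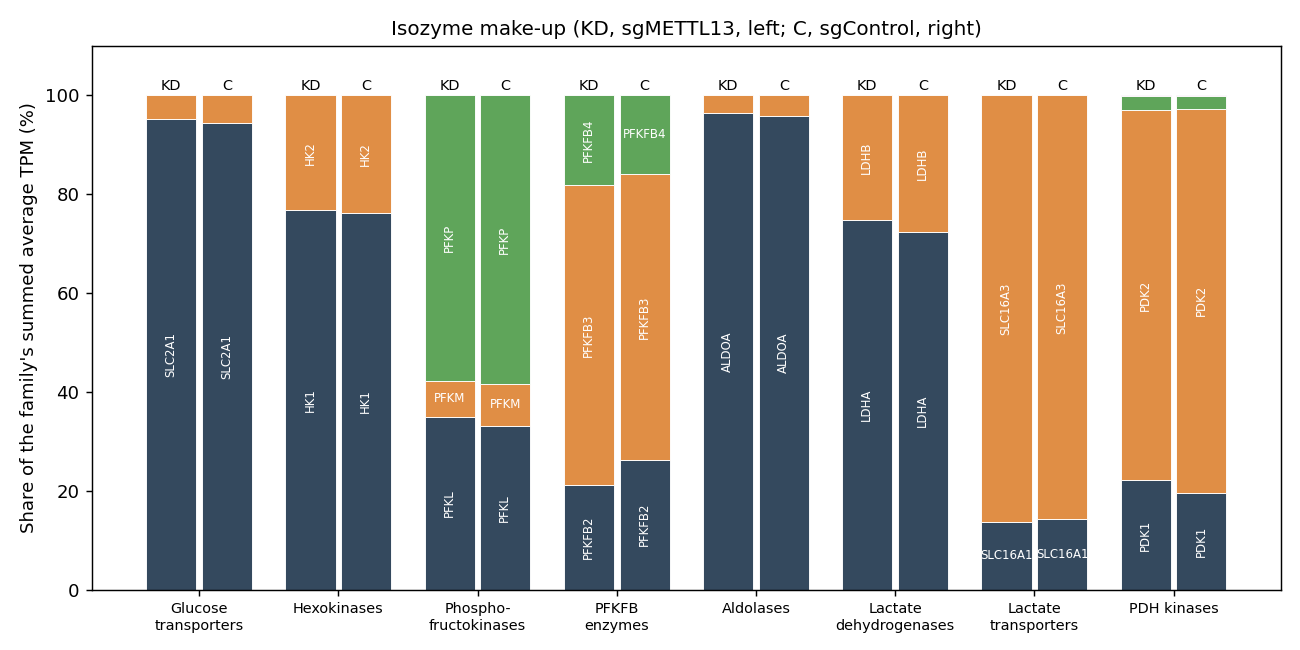
Share of each family's summed average TPM held by each isozyme, in sgMETTL13 (KD, left bar) and sgControl (C, right bar); unlabelled slices are SLC2A3, ALDOC and, in the pyruvate dehydrogenase kinases, PDK3. The make-up is close in both groups, and the PFKFB family shows the widest shift, with PFKFB2 at 21.2% in sgMETTL13 and 26.3% in sgControl.

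The most abundant enzymes of the lower pathway lay slightly above 0 as deposited, though GAPDH lay below 0 by average TPM and after the GC-length correction. ALDOA, the main aldolase, had 3228 TPM in sgMETTL13 cells and 3040 TPM in sgControl cells, and its log2 fold change of 0.16 (0.06 to 0.26) just missed the threshold (adjusted p = 0.0581) in the authors' deposited table. TPI1, which interconverts the triose phosphates, had 1874 TPM in sgMETTL13 cells and 1773 TPM in sgControl cells, with a log2 fold change of 0.15 (0.05 to 0.25, adjusted p = 0.0586) in the authors' deposited table. The brain-enriched aldolase ALDOC was lower in level, with 118 TPM in sgMETTL13 cells and 131 TPM in sgControl cells (log2 fold change -0.07). For GAPDH, the NADH-producing dehydrogenase often used as a loading control, the log2 fold change was 0.04 (-0.05 to 0.13, adjusted p = 0.918). PGK1, the first ATP-yielding step, had 407 TPM in sgMETTL13 cells and 395 TPM in sgControl cells (log2 fold change 0.11, 0.01 to 0.22, adjusted p = 0.348) in the authors' deposited table. PGAM1, the mutase, had 460 TPM in sgMETTL13 cells and 458 TPM in sgControl cells (log2 fold change 0.08). ENO1 supplied 99.8% of the enolase TPM in each group, at 2324 TPM in sgMETTL13 cells and 2270 TPM in sgControl cells, with a log2 fold change of 0.11 (0.02 to 0.20, adjusted p = 0.233) in the authors' deposited table. The neuronal enolase ENO2 had 55.3 reads in sgMETTL13 cells and 59.7 in sgControl cells, and the muscle form ENO3 had 21 in sgMETTL13 cells and 17.7 in sgControl cells, so that only large changes were detectable in either.

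PKM encodes pyruvate kinase, which makes pyruvate and ATP, and its M1 and M2 splice forms are not separated in a table by gene. PKM (Entrez gene 5315) is a protein-coding gene on chromosome 15, at 72199029 to 72231822 on the minus strand (GRCh38, GENCODE 29). It averaged 65920 estimated reads in sgMETTL13 cells and 60958 in sgControl cells, or 3412 TPM in sgMETTL13 cells and 3182 TPM in sgControl cells, in the authors' deposited table. The log2 fold change was 0.16 (implied standard error 0.0434, 95% interval 0.08 to 0.25), a 1.12-fold rise (1.06 to 1.19), with an adjusted p of 0.00677 in the authors' deposited table. After the GC-length correction PKM stood at 0.12 and was no longer called (adjusted p = 0.132), and ALDOA and TPI1 stood at 0.10 and 0.06. By average TPM alone PKM was at 107% of the control level, the highest of the 13 steps.

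Small rises as deposited were common among highly expressed genes as a whole. All 10 of the 34 genes with 5000 or more mean reads had a log2 fold change above 0, with a median of 0.09 in the authors' deposited table. The level was chosen after the values were seen, and LDHB, just under it at 4829 mean reads, was at -0.12. By average TPM, 4 of the 10 (SLC2A1, GPI, GAPDH and LDHA) lay below 0. Of all 504 genes with 5000 or more mean reads 75.6% lay above 0 as deposited, with a median of 0.07, and 18.3% were called higher and 0.794% lower. These values carry the offset of 0.05 over the ratio of average reads given above, and the 504 genes were not recounted without it. PKM is the 1 called gene among the 10. The 24 genes under 5000 mean reads had a median of -0.045, with 11 above 0 and 13 below. Across the 30 abundant genes of the pathway the fold change correlated with log2 mean TPM at a Pearson r of 0.44 (Spearman rho 0.50) and with transcript GC content at 0.42 (rho 0.42). Over all 8289 abundant genes with both values, the figures were 0.30 (rho 0.34) and 0.32 (rho 0.35). The points share the same 6 libraries, so these are descriptions across genes, and the part of abundance or GC content in the PKM result was not tested beyond the GC-length correction.

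**Figure D4:**
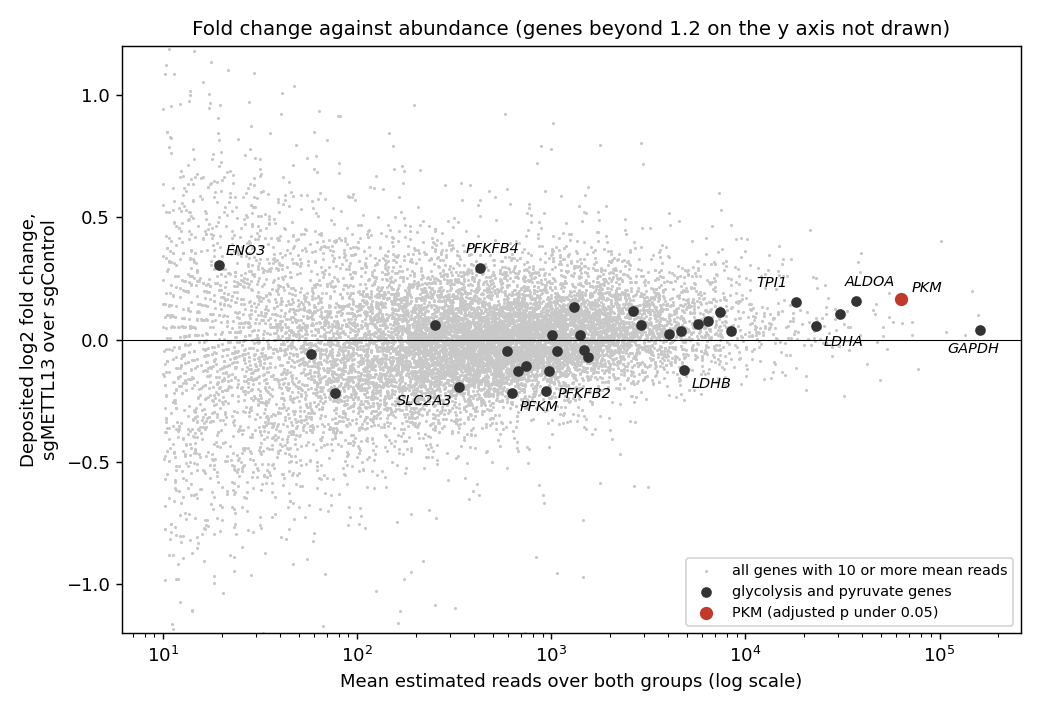
Deposited log2 fold change (sgMETTL13 over sgControl) against mean estimated reads (log axis) for all genes with 10 or more mean reads (grey), the glycolysis and pyruvate genes (black) and PKM (red). The pathway genes lie inside the cloud of all genes. Those at the right, with 5000 or more reads, lie above 0, as 75.6% of all genes at that level do. The level was chosen after the values were seen, and LDHB lies just under it at -0.12.

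Genes of lactate production and export did not pass the test. LDHA, the pyruvate-reducing lactate dehydrogenase subunit, had 1376 TPM in sgMETTL13 cells and 1395 TPM in sgControl cells, with a log2 fold change of 0.05 (-0.08 to 0.18, adjusted p = 0.924) in the authors' deposited table. LDHB, the subunit that favours lactate oxidation, had 464 TPM in sgMETTL13 cells and 532 TPM in sgControl cells, with a log2 fold change of -0.12 (-0.25 to -0.0018, adjusted p = 0.393) in the authors' deposited table. LDHA thus made up 74.8% of the TPM of the pair in sgMETTL13 cells and 72.4% in sgControl cells, and whether the subunits differ from each other in response was not tested. SLC16A3 encodes MCT4, the lactate exporter of glycolytic cells, and had 297 TPM in sgMETTL13 cells and 305 TPM in sgControl cells (log2 fold change 0.04, -0.08 to 0.15, adjusted p = 0.968) in the authors' deposited table. SLC16A1, the transporter MCT1, had 46.8 TPM in sgMETTL13 cells and 50.7 TPM in sgControl cells (log2 fold change -0.04). BSG, the chaperone that brings both transporters to the membrane, was not called (log2 fold change 0.12, adjusted p = 0.182 in the authors' deposited table).

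Of the 34 genes, none that acts in pyruvate entry into mitochondria passed the test, and PDP2, from the wider list, did. Of the complex itself, PDHA1 and PDHB, the subunits of its first enzyme, had 55.2 and 50.01 TPM in sgMETTL13 cells, against 60.7 and 54.3 TPM in sgControl cells, in the authors' deposited table. DLAT, the acetyl-transferring core, had 33.5 TPM in sgMETTL13 cells and 38.3 TPM in sgControl cells. The log2 fold change was -0.05 (-0.19 to 0.10, adjusted p = 0.968) for PDHA1, -0.05 for PDHB and -0.13 (-0.28 to 0.02) for DLAT, and none passed the test. The sum over these subunits was 139 TPM in sgMETTL13 cells and 153 TPM in sgControl cells, which is 90.5% of the control level. The remaining subunits, from the wider list, were DLD at -0.14 and PDHX at 0.13, also not called in the authors' deposited table. The mitochondrial pyruvate carrier genes MPC1 and MPC2 were at 0.10 and -0.03.

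The kinases PDK1 to PDK4 switch the complex off and the phosphatases PDP1 and PDP2 switch it on. PDK2 supplied 74.99% of the kinase TPM in sgMETTL13 cells and 77.6% in sgControl cells, at 42.6 TPM in sgMETTL13 cells and 48.7 TPM in sgControl cells (log2 fold change -0.11, -0.28 to 0.07, adjusted p = 0.793) in the authors' deposited table. PDK1, a HIF-1 target, had 12.6 TPM in sgMETTL13 cells and 12.3 TPM in sgControl cells (log2 fold change 0.06, -0.19 to 0.32). PDK3 had 1.61 TPM in sgMETTL13 cells and 1.69 TPM in sgControl cells, and PDK4, the fasting-induced form, averaged 1 read in sgMETTL13 cells and 0.667 in sgControl cells, too few for a fold. PDP1 had 19.0 TPM in sgMETTL13 cells and 21.9 TPM in sgControl cells (log2 fold change -0.13, -0.30 to 0.05, adjusted p = 0.684) in the authors' deposited table. Its paralog PDP2 fell to 8.03 TPM in sgMETTL13 cells, against 10.7 TPM in sgControl cells, a log2 fold change of -0.34 (-0.53 to -0.15, adjusted p = 0.0191) in the authors' deposited table. The average reads of PDP2 are also not multiples of 1 read over 3 libraries, and it was no longer called after the GC-length correction (log2 fold change -0.30, adjusted p = 0.0716), though it stayed called when that correction used the median over transcripts in place of the longest transcript (adjusted p = 0.0154). PDPR, the regulatory subunit of the phosphatase, was at -0.12 and not called.

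Of 38 further isozymes, transporters and subunits of glycolysis 32 were in the table, with 0 called higher and 1 lower (PDP2) in the authors' deposited table. That is 3.13%, against 3.8% of all genes, and the list had a median of -0.11 at a median of 165 mean reads. Of 19 gluconeogenesis and glycogen genes 17 were in the table, with 1 called higher and 1 lower. They make up 11.8% of the list, against 3.8% of all genes and 7.04% of abundant genes, to which 13 of the 17 belong. PYGL, the liver-type glycogen phosphorylase that releases glucose 1-phosphate, fell to 106 TPM in sgMETTL13 cells, against 130 TPM in sgControl cells (log2 fold change -0.23, -0.35 to -0.11, adjusted p = 0.00698 in the authors' deposited table). PYGB, the brain-type form and the more abundant one, was at 0.14 and not called (adjusted p = 0.182 in the authors' deposited table). GSK3A, a kinase that inhibits glycogen synthase, rose to 162 TPM in sgMETTL13 cells, against 148 TPM in sgControl cells (log2 fold change 0.20, 0.08 to 0.32, adjusted p = 0.0299 in the authors' deposited table), and was no longer called after the GC-length correction (adjusted p = 0.116). PYGL stayed called there (adjusted p = 0.00188).

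None of the 21 genes listed for the tricarboxylic acid cycle was called in the authors' deposited table, by the only test there is. Of all genes 3.8% were called, and of abundant genes, to which 20 of the 21 belong, 7.04%. The list also holds cytosolic forms such as IDH1. At an unadjusted p under 0.05 there were 0 higher and 3 lower: FH at -0.23, SUCLG2 at -0.22 and IDH3A at -0.22. These are 14.3% of the list, against 4.8% of all genes and 7.27% of the abundant genes. The list had a median of -0.04. Of 19 regulators of glycolytic genes, 15 of them abundant, EPAS1 was the 1 called (5.26%, against 3.8% of all genes and 7.04% of abundant genes). EPAS1 encodes the HIF-2 alpha subunit and rose to 69.7 TPM in sgMETTL13 cells, against 57.0 TPM in sgControl cells (log2 fold change 0.37, 0.25 to 0.48, adjusted p = 1.46e-07 in the authors' deposited table). HIF1A, the HIF-1 alpha subunit, was more abundant, with 399 TPM in sgMETTL13 cells and 404 TPM in sgControl cells, and had a log2 fold change of 0.05 (-0.05 to 0.16). HIF proteins are controlled mainly by their stability, which RNA does not show. EGLN3, a HIF-induced prolyl hydroxylase, had 8.06 TPM in sgMETTL13 cells and 6.44 TPM in sgControl cells (log2 fold change 0.40, adjusted p = 0.193 in the authors' deposited table), and MYC was at 0.14 (adjusted p = 0.277). TXNIP and ARRDC4, the glucose-sensing arrestins that MLX partners induce, were at 0.09 and 0.19 and not called.

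**Figure D5:**
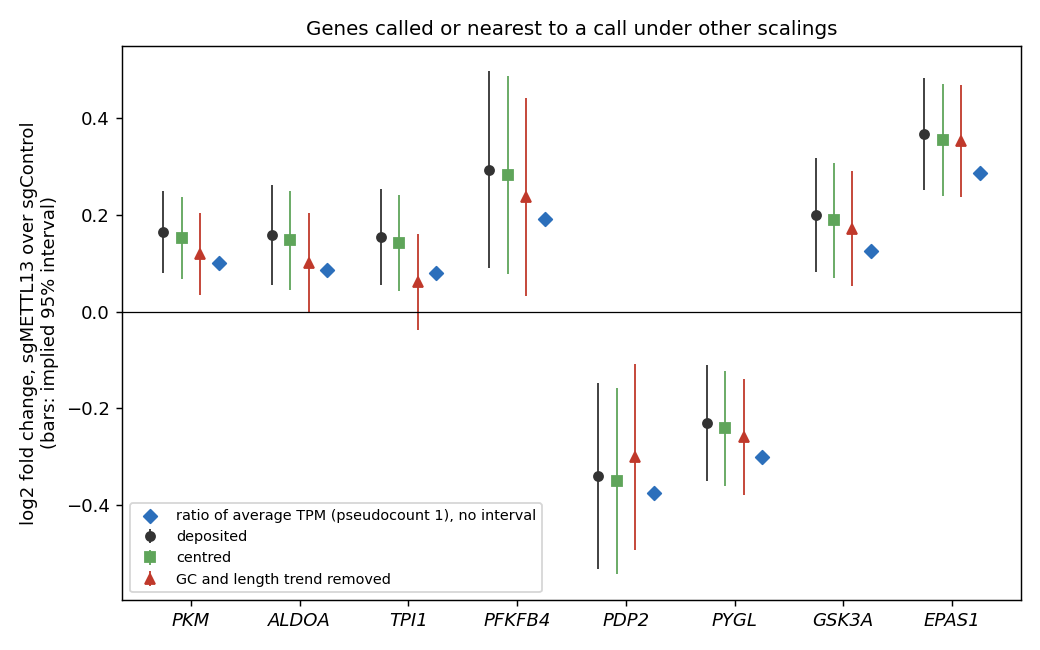
Log2 fold change (sgMETTL13 over sgControl) of the genes called or nearest to a call as deposited, centred, after the GC-length correction (bars: 95% interval implied by the deposited p), and as the ratio of average TPM with a pseudocount of 1 (no interval). Each gene keeps its direction in the 4 settings drawn, and EPAS1 has the highest value in each.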

How the data were processed

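RNA was extracted with TRIzol, per the labels' protocols. HISAT2 2.0.4, Bowtie2 2.2.5, RSEM 1.2.12, DESeq2 (with no version) and the builds hg38 and GRCh38.p12 are named in the submitters' processing notes, without role or order. The 1 deposited table gives, per the file headers, group averages of TPM, FPKM and read count, besides the authors' log2 ratio of KD to WT, its p-value and its q-value. The read counts as deposited are estimated counts (expected counts). The deposited q-value is called the adjusted p, and a Benjamini-Hochberg adjustment recomputed from the p-value came within 1.22% of it. The sources used here do not name the test.

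No model was fitted, since values per library are not analysed here, and the deposited comparison took the place of the planned edgeR test. Depth of single libraries is unknown. The implied standard error is the size of the log2 fold change over the normal quantile of its p. GC content and length are those of the longest GENCODE 29 transcript, matched by Entrez ID for 16211 genes (97.6%) and all 34 members. The longest transcript replaced the median over transcripts after values had been seen, and both are reported. The GC-length correction subtracts natural splines of 4 degrees of freedom, which also centres the fold changes. Steps were tested on simulated data. Promoters are from RefSeq (GRCh38.p14). The members and lists were chosen with earlier results of these data known. Full values are given for called genes, the 6 largest changes among abundant members, and the leading gene of each step. The software was Python 3.11.15 (scipy 1.17.1, patsy 1.0.2, numpy 2.4.6, pandas 2.3.3, matplotlib 3.10.9).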

Additional observations from a re-analysis of the deposited data

How the results depend on the processing

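Of the 34 genes 1 was called as deposited, and also at a threshold of 0.01, with a recomputed adjustment and with centred fold changes. The count was 4 at a threshold of 0.1, 3 among abundant genes alone, and 0 with Bonferroni or after the GC-length correction. That correction turned the sign of 3 uncalled genes, PFKP (-0.052), GAPDH (-0.058) and SLC16A3 (-0.040). A version tried first, with the median GC content and length over a gene's transcripts, was replaced by the longest transcript after values had been seen. It also left 0 of the 34 genes called (PKM 0.11, adjusted p = 0.224), kept 3 genes of the wider lists (PDP2, PYGL and EPAS1) and turned the sign of 4 uncalled genes, GPI (-0.039), PFKP (-0.046), GAPDH (-0.020) and SLC16A3 (-0.093). The median of the 34 genes was 0.036 as deposited, -0.039 as a ratio of average TPM with a pseudocount of 0.1 or of 1, 0.0059 after the correction and -0.0066 with its median-transcript version, so its side of 0 depends on the scaling. Of the wider lists 4 genes were called as deposited, 2 at a threshold of 0.01 or after the correction (PYGL and EPAS1), and 1 with Bonferroni (EPAS1). FPKM in place of TPM kept the direction of all 13 step sums. The causes were not tested. Leaving out a library was not run. No paired analysis was possible because the table holds group averages and its columns carry no replicate numbers. Depth limits the genes with few reads, ENO2, ENO3, PDK3 and PDK4.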

Other observations

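The low end of the lists holds genes that many cells express. STK11, the kinase that activates AMPK when cellular energy falls, was listed at 0 TPM in sgMETTL13 cells and 0.0133 TPM in sgControl cells in the authors' deposited table, while the AMPK subunits it phosphorylates had 48.7 TPM in sgMETTL13 cells and 53.1 TPM in sgControl cells (PRKAA1) and 0.827 TPM in sgMETTL13 cells and 0.917 TPM in sgControl cells (PRKAA2). The gluconeogenic gene FBP1 had 0.24 TPM in sgMETTL13 cells and 0.35 TPM in sgControl cells, and PCK1 0 TPM in sgMETTL13 cells and 0.0167 TPM in sgControl cells. PCK2, the mitochondrial form of PCK1, had 113 TPM in each group. A single gene at 0 in group averages gives no information on its cause, which was not tested.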
